A study of Homo sapiens with 8 samples.

Results

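The genes described here are 10 members of the ATF4 pathway, chosen by name from the 25369 genes of the expression table: the transcription factors ATF4, ATF3, ATF5, DDIT3, CEBPB and CEBPG and the feedback and output genes TRIB3, CHAC1, SESN2 and PPP1R15A. All 10 were in the table, and all 10 had at least 1 RPKM (reads per kilobase of gene length, relative to all reads of the library) in 8 of 8 libraries. Their mRNA was measured by RNA sequencing. The cells were EPC2-hTERT, a wild-type human esophageal epithelial line immortalized with telomerase, grown as a stratified layer at an air-liquid interface. Cultures were grown for 2 days, kept for 5 days in medium with 1.8 mM calcium chloride and exposed to air for 4 days. They then received DMSO vehicle (4 libraries) or 1 mM dimethyloxalylglycine (DMOG, 4 libraries) for 18 h. DMOG is an analog of 2-oxoglutarate that inhibits prolyl hydroxylases. The comparison asked how gene expression in this epithelium changes with DMOG. It cannot tell inhibition of those enzymes apart from other effects of DMOG. All libraries come from a single cell line. Nothing in the labels says whether a replicate is its own culture, so a p-value here reflects only library-to-library spread, which could be technical.

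ATF4 is a basic leucine zipper (bZIP) transcription factor and the main effector of the integrated stress response. Kinases that sense amino acid shortage, ER stress, heme shortage or viral RNA phosphorylate the translation factor eIF2 alpha, which lowers general protein synthesis while ATF4 mRNA is translated more. ATF4 is thus largely controlled after transcription, and its mRNA level is not a readout of its protein, which was not measured here. ATF4 binds C/EBP-ATF response elements as a dimer with other bZIP proteins, C/EBP family members among them, and induces amino acid synthesis enzymes, transporters and tRNA synthetases. It also induces genes that limit the response: PPP1R15A (GADD34) brings protein phosphatase 1 to eIF2 alpha, and TRIB3 is a pseudokinase that inhibits ATF4.

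Short stretches of the members' promoters are shown because their letters match elements through which this pathway, or hypoxia-inducible factor (HIF), is known to act. The sequences are from RefSeq (GRCh38.p14), which gave 19 annotated start sites for the 10 members, and the 250 bases before each start were searched on both strands. The core of the C/EBP-ATF response element, TGATGNAA, was found before a start of 3 members, CEBPG, CHAC1 and ATF3, and in 3.14% of all 35116 such windows (3.89% of 27305 genes). The cyclic AMP response element, TGACGTCA, was found in PPP1R15A and in 1.65% of windows (2.03% of genes). The core of the hypoxia response element, ACGTG, was found in ATF4 and in 18.5% of windows (21.7% of genes). In ATF4 it lies on both strands, as the overlapping ACGTG and CACGT. The ER stress response element was found in 0 of the 19 member windows and in 0.074% of all windows. The matched letters are in capitals in windows of at most 30 bases, all on the plus strand. They start 42 bases before a CEBPG start, 209 before the CHAC1 start (read on the minus strand), 191 before an ATF3 start, 58 before the PPP1R15A start, and 81 and 84 before 2 ATF4 starts.
CEBPG (chr19:33374060-33374089): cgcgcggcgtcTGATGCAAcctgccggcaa
CHAC1 (chr15:40953251-40953280): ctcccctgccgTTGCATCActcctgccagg
ATF3 (chr1:212565205-212565234): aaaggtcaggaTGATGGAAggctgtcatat
PPP1R15A (chr19:48872352-48872381): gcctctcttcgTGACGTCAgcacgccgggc
ATF4 (chr22:39520467-39520493): aggagacggtcACGTGgtcgcggcgga
A match is a description of letters and not a bound site, and a window without one says nothing of the factor.

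The RPKM values imply totals of 31245695 to 39931833 reads per library, and 30993090 to 39616320 reads per library were recovered in genes. All 10 listed markers of squamous epithelium were present, with summed levels of 12885 to 20623 RPKM with vehicle and 17181 to 17875 with DMOG. Of the listed markers 1 of 7 for fibroblasts, 1 of 4 for endothelium, 1 of 6 for leukocytes and 2 of 7 for columnar epithelium reached 1 RPKM in any library. The fibroblast sum was 8.76 to 14.1 RPKM with vehicle and 19.0 to 32.0 with DMOG, led by COL1A1, while DCN and LUM were listed at 0 in every library. The leukocyte sum was 42.8 to 74.2 and 61.0 to 94.0 RPKM, led by CD68. The endothelial sum was 1.44 to 1.97 and 0.870 to 1.69 RPKM, and the columnar sum 105 to 141 and 93.9 to 109 RPKM. On the first principal component (65.5% of the variance) the vehicle libraries spanned -23.4 to -21.2, DMOG replicates 1, 3 and 4 spanned 14.9 to 56.2, and DMOG replicate 2 was nearest the vehicle side at -17.0. The results are therefore given over all 8 libraries, without DMOG replicate 2, and over the 6 libraries (replicates 1, 3 and 4 of each group) that make up the group means of the authors' deposited table. Leaving out a DMOG library because it lies near vehicle is a choice made on the outcome. Calls and adjusted p-values without it, those over the 6 libraries among them, depend on that choice and are not error rates set in advance.

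Over the 6 libraries, 4 of the 10 members fell with DMOG: TRIB3, ATF5, CEBPG and CEBPB. The other 6, ATF4, ATF3, DDIT3, CHAC1, SESN2 and PPP1R15A, did not pass the test. In these bulk libraries fewer cells of a type and less RNA per cell cannot be told apart. No member was called higher by limma (0 of 10, and 0 at an unadjusted p under 0.05), where 16.1% of all 11122 genes tested were called lower and 13.7% higher. Unadjusted, 2399 of all genes tested were higher. Limma-voom on recovered reads also called 4 members lower and 0 higher, with 16% and 13.8% of all genes. The median log2 fold change of the members was -0.48, against -0.00 over all genes. Fold changes are differences in log2(scaled RPKM + 1), DMOG minus vehicle, where RPKM were scaled by median-ratio factors. Means with SD below are RPKM as deposited, so their ratios differ from these fold changes. With RPKM as deposited the median of all genes was -0.26 and that of the members -0.76, and 4 members were again called lower and 0 higher. In that fit 34.5% of all genes were lower and 6.13% higher, so the members' count was near the background. Without DMOG replicate 2 alone (7 libraries), 4 members were lower and 0 higher, and 17.7% and 15.5% of all genes were. Over all 8 libraries limma called 0 members and 0 genes in either direction, and limma-voom called 0 as well. At an unadjusted p under 0.05 limma had 2 of 10 members lower and 0 higher. At that threshold 1813 of all 11122 genes tested were lower and 1556 higher, so the members' count that fell was near the background.

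**Figure D1:**
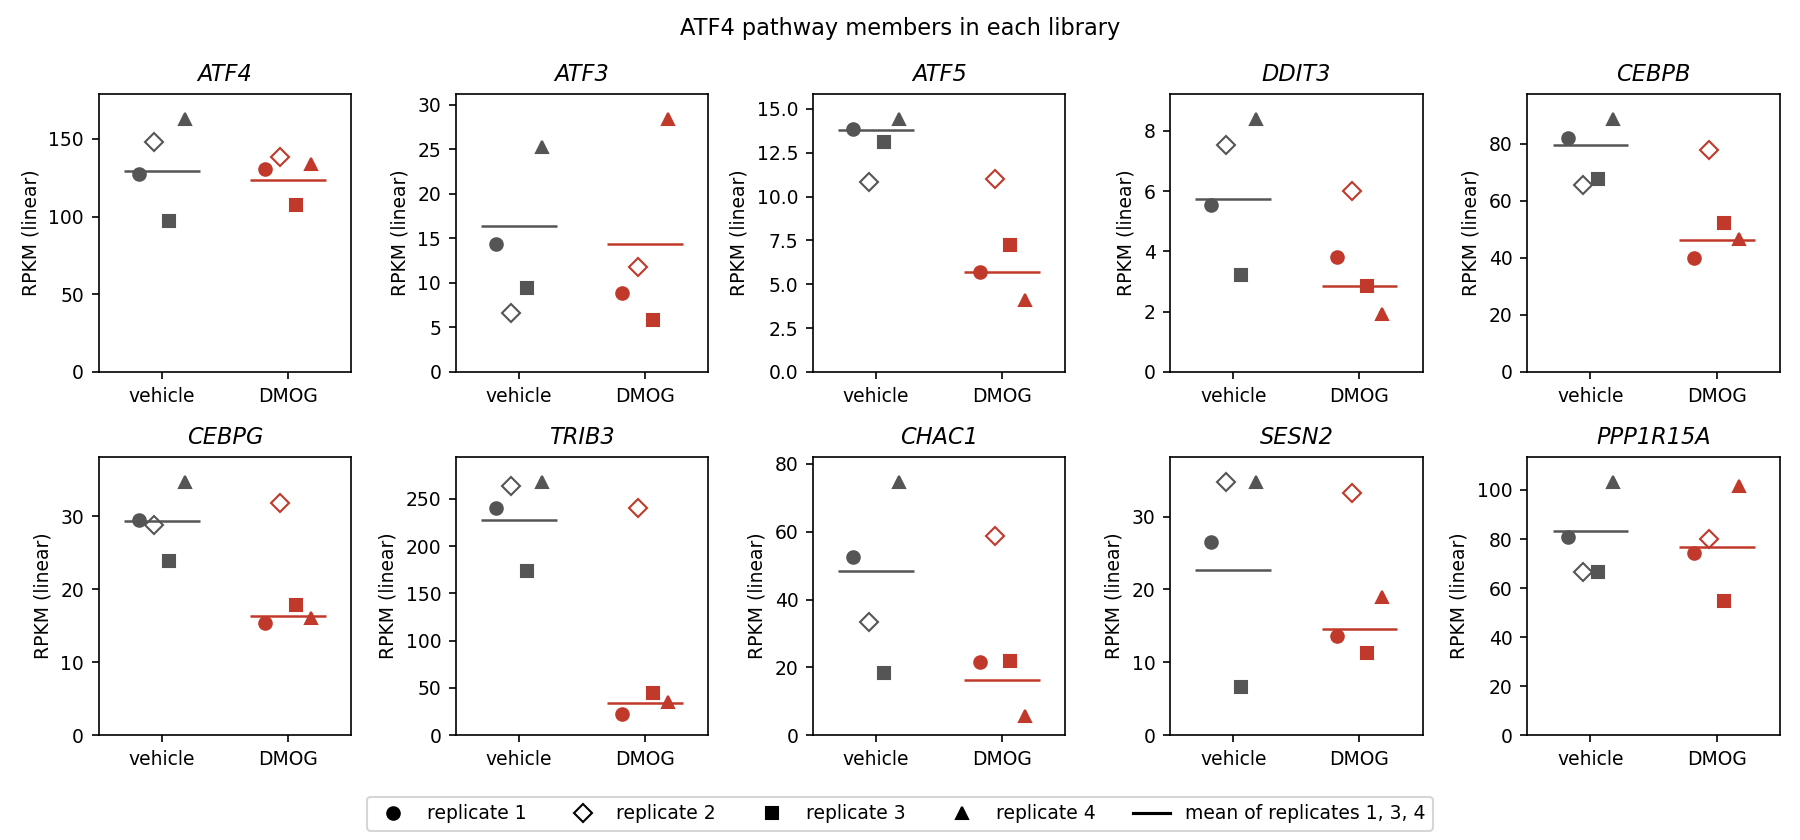
RPKM as deposited (linear axes from 0) of each member in the 4 vehicle and 4 DMOG libraries. Symbols mark the replicate number, open symbols are replicate 2, and lines are means of replicates 1, 3 and 4. For TRIB3, ATF5, CEBPB and CEBPG the DMOG replicates 1, 3 and 4 sit below all 4 vehicle libraries, and DMOG replicate 2 sits at the vehicle level.

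ATF4 (chromosome 22, 39916564 to 39918691, plus strand, hg19) had 128, 148, 97.3 and 163 RPKM in vehicle replicates 1 to 4. In DMOG replicates 1 to 4 it had 130.4, 138, 107 and 134 RPKM. Every DMOG library lay inside the vehicle range. ATF4 mRNA averaged 129 ± 32.9 RPKM (vehicle) and 124 ± 14.5 (DMOG, both SD, n = 3, replicates 1, 3 and 4). The log2 fold change was 0.26 ± 0.20 SE (95% interval -0.20 to 0.73, limma adjusted p = 0.332) over the 6 libraries, but -0.04 (-0.50 to 0.43, adjusted p = 0.892) with RPKM as deposited. With the replicate number as a block it was 0.26 with an interval of 0.02 to 0.50 and an adjusted p of 0.0749, so no call was made. The lowest bound among these 3 intervals was -0.50. Leaving out vehicle replicate 3 gave 0.094, and leaving out vehicle replicate 4 gave 0.42.

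ATF5, a bZIP factor linked to mitochondrial stress, fell. ATF5 (chromosome 19, 50431959 to 50437193, plus strand) had 13.9, 10.8, 13.1 and 14.4 RPKM with vehicle and 5.71, 11.0, 7.21 and 4.13 with DMOG in replicates 1 to 4. DMOG replicates 1, 3 and 4 were below every vehicle library, and DMOG replicate 2 was above vehicle replicate 2. The mean went from 13.8 ± 0.658 to 5.68 ± 1.54 RPKM (SD, n = 3 each), and the log2 fold change was -0.90 ± 0.15 (adjusted p = 0.00935). Without DMOG replicate 2 alone it was -0.85 (adjusted p = 0.00521). Over 8 libraries it was -0.68 (adjusted p = 0.118). With RPKM as deposited over the 6 libraries it was -1.17 (adjusted p = 0.00434). The gene shares 1030 bases with NUP62 on the opposite strand (10.6 to 12.9 RPKM with vehicle, 10.05 to 11.8 with DMOG) and 838 with IL4I1 (at most 0.0620 RPKM). The sources used here do not say whether counting used strand, so levels of such overlapping genes are uncertain.

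The 2 C/EBP members, bZIP factors that can pair with ATF4, fell by similar amounts. CEBPB (chromosome 20, 48807120 to 48809227, plus strand) had 82.0, 65.5, 67.6 and 88.8 RPKM with vehicle and 39.9, 77.9, 52.3 and 46.8 with DMOG. CEBPG (chromosome 19, 33864575 to 33873592, plus strand) had 29.5, 28.8, 23.8 and 34.7 RPKM with vehicle and 15.4, 31.8, 17.8 and 16.0 with DMOG. For both genes DMOG replicates 1, 3 and 4 were below all 4 vehicle libraries, and DMOG replicate 2 lay within the vehicle range. Mean CEBPB was 79.5 ± 10.8 RPKM (vehicle) against 46.3 ± 6.21 (DMOG, both SD, n = 3), and its log2 fold change was -0.47 ± 0.14 (adjusted p = 0.0450). Mean CEBPG was 29.3 ± 5.42 and 16.4 ± 1.22 RPKM, and its log2 fold change was -0.50 ± 0.13 (adjusted p = 0.0329). With RPKM as deposited the log2 fold changes were -0.77 for CEBPB and -0.79 for CEBPG (adjusted p = 0.0085 and 0.00796). Over 8 libraries they were -0.30 and -0.35 (adjusted p = 0.218 and 0.210), and without DMOG replicate 2 alone -0.43 and -0.53 (0.0355 and 0.0158). Both calls were lost without vehicle replicate 1 (adjusted p = 0.134 for CEBPB and 0.102 for CEBPG), vehicle replicate 4 (0.139 and 0.104) or DMOG replicate 1 (0.137 and 0.112), and with no filter on low genes (0.0765 and 0.0598). For CEBPB the call was also lost with upper-quartile factors (0.0546) and on leaving out vehicle replicate 3 (0.0545) or DMOG replicate 4 (0.0533).

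ATF3, a bZIP factor induced early in many stresses, did not pass, and its libraries varied widely in both groups. ATF3 (chromosome 1, 212738676 to 212794119, plus strand) had 14.4, 6.64, 9.41 and 25.3 RPKM with vehicle and 8.86, 11.8, 5.78 and 28.4 with DMOG. Replicate 4 was the highest library of each group. The log2 fold change was -0.08 with a 95% interval of -1.47 to 1.30 (adjusted p = 0.922), so neither a fall nor a rise of 2-fold was outside what these libraries allow.

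DDIT3 encodes CHOP, a bZIP factor tied to stress-induced cell death. DDIT3 (chromosome 12, 57910371 to 57914300, minus strand) was the least abundant member, with 5.55, 7.54, 3.23 and 8.40 RPKM with vehicle and 3.80, 6.01, 2.84 and 1.93 with DMOG. The groups overlapped: vehicle replicate 3 was below DMOG replicates 1 and 2, and DMOG replicate 2 was above vehicle replicate 1. These levels rest on 152 to 337 reads per library with vehicle and 71 to 242 with DMOG. The log2 fold change was -0.52 with a 95% interval of -1.20 to 0.16 (adjusted p = 0.201). With RPKM as deposited it was -0.76 (interval -1.49 to -0.03, adjusted p = 0.0882), and on leaving out vehicle replicate 3 -0.79 (interval -1.40 to -0.18, adjusted p = 0.0760). The end of DDIT3 shares 68 bases with MARS, the methionyl-tRNA synthetase gene on the opposite strand. MARS went from 110 to 157 RPKM in the vehicle libraries to 5.61 to 36.3 in DMOG replicates 1, 3 and 4. The part of its reads in the DDIT3 values was not tested.

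TRIB3 showed the largest change of the members. TRIB3 (chromosome 20, 361308 to 378203, plus strand) had 241, 264, 173 and 268 RPKM with vehicle and 22.1, 240.4, 45.1 and 35.1 with DMOG. DMOG replicates 1, 3 and 4 were far below the lowest vehicle library, while DMOG replicate 2 was at the vehicle level. The mean went from 227 ± 48.6 to 34.1 ± 11.5 RPKM (SD, n = 3 each), and the log2 fold change was -2.43 ± 0.27 (95% interval -3.07 to -1.80, adjusted p = 0.00420). It was -2.53 without DMOG replicate 2 alone (adjusted p = 0.00132) and -1.87 over 8 libraries (adjusted p = 0.118). Per ATF4 mRNA, TRIB3 stood at 1.64 to 1.88 in the 4 vehicle libraries, at 1.74 in DMOG replicate 2, and at 0.169, 0.421 and 0.262 in DMOG replicates 1, 3 and 4.

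PPP1R15A, the phosphatase subunit that reverses eIF2 alpha phosphorylation, did not pass. PPP1R15A (chromosome 19, 49375649 to 49379319, plus strand) had 80.7, 66.5, 66.5 and 103 RPKM with vehicle and 74.3, 80.2, 54.6 and 101 with DMOG. The groups overlapped, with replicate 4 highest in each. The log2 fold change was 0.16 with a 95% interval of -0.47 to 0.79 (adjusted p = 0.664), and -0.14 with RPKM as deposited (adjusted p = 0.678).

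CHAC1 and SESN2, the 2 members with the highest ratio of highest to lowest vehicle library, did not pass. CHAC1 (chromosome 15, 41245636 to 41248717, plus strand), an enzyme that breaks down glutathione, had 52.6, 33.4, 18.4 and 74.6 RPKM with vehicle and 21.6, 58.8, 22.0 and 5.74 with DMOG. Its log2 fold change was -1.21 with a 95% interval of -2.63 to 0.21 (adjusted p = 0.160). It was -0.65 on leaving out DMOG replicate 4 and -0.72 over 8 libraries. With RPKM as deposited it was -1.50 (interval -2.97 to -0.02, adjusted p = 0.0943). On leaving out vehicle replicate 3 it was -1.76 (interval -3.07 to -0.46, adjusted p = 0.0702). SESN2 (chromosome 1, 28585963 to 28609002, plus strand), a leucine-binding inhibitor of mTORC1 signalling, had 26.5, 34.7, 6.68 and 34.7 RPKM with vehicle and 13.6, 33.3, 11.3 and 19.0 with DMOG. Its log2 fold change was -0.07 with a 95% interval of -1.33 to 1.19 (adjusted p = 0.927). The groups overlapped for both genes. Vehicle replicate 3 was below every DMOG library for SESN2 and below DMOG replicates 1, 2 and 3 for CHAC1.

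**Figure D2:**
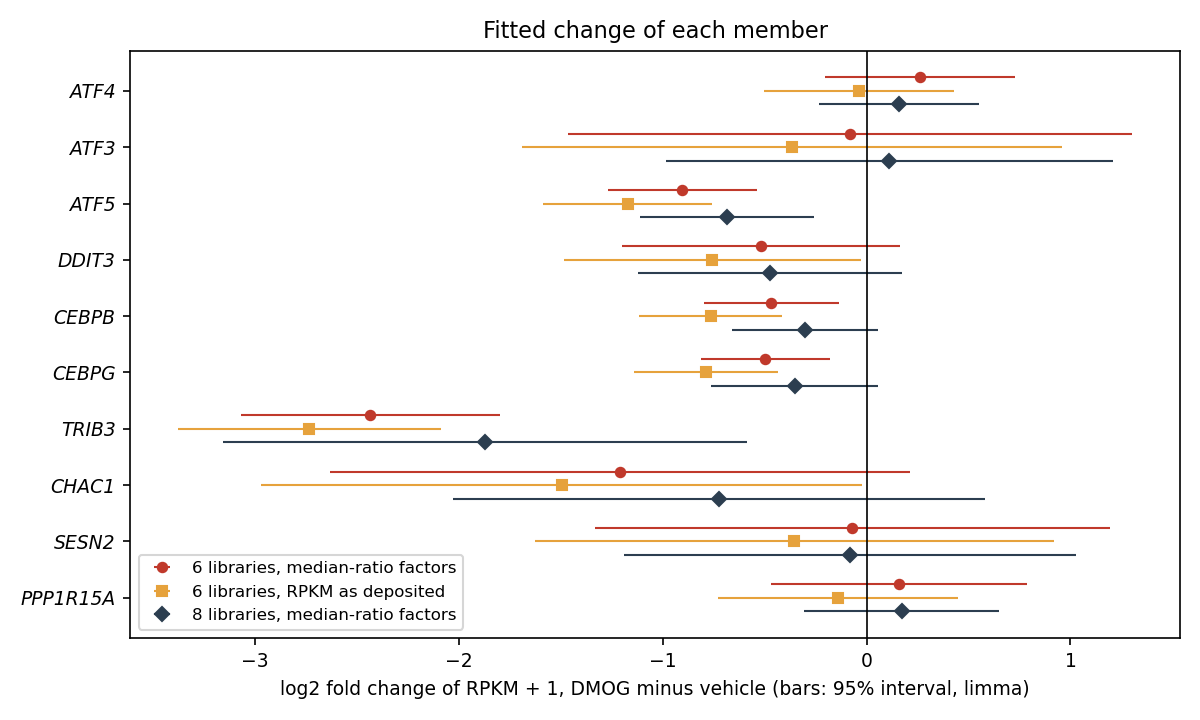
Log2 fold change of RPKM + 1 (DMOG minus vehicle, horizontal axis) of each member with its 95% interval from limma, over 6 libraries with median-ratio factors, over 6 libraries as deposited and over 8 libraries. TRIB3 lies at -2.43, -2.73 and -1.87, and the intervals of ATF4, ATF3, SESN2 and PPP1R15A include 0 in all 3 fits.

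The split among the members can be set against counts of libraries that do not overlap. For 4 of 10 members (ATF5, CEBPB, CEBPG and TRIB3) DMOG replicates 1, 3 and 4 were all below the 4 vehicle libraries, both as deposited and scaled, as was the case for 22.1% of all tested genes on the scaled values and 36.3% as deposited. With all 4 DMOG libraries only ATF5 did so on the scaled values, and 0 members lay above them in either form of this count. The corresponding shares of all tested genes were 20.3% above for DMOG replicates 1, 3 and 4 (8.51% as deposited) and, for all 4, 7.33% below and 5.04% above. As deposited, ATF5 overlapped through DMOG replicate 2.

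RPKM are per length, so levels can be ordered between genes. The order changed at its top in DMOG replicates 1, 3 and 4. In DMOG replicate 2 it did not, with TRIB3 at 240.4 RPKM above ATF4 at 138. With vehicle (4 libraries) the means ran TRIB3 236, ATF4 134, PPP1R15A 79.2, CEBPB 76.0, CHAC1 44.8, CEBPG 29.2, SESN2 25.7, ATF3 13.9, ATF5 13.1 and DDIT3 6.18 RPKM. TRIB3 lay above ATF4 and ATF5 above DDIT3 without overlap of their libraries, and the other neighbours in this order overlapped. In DMOG replicates 1, 3 and 4 the means ran ATF4 124, PPP1R15A 76.8, CEBPB 46.3, TRIB3 34.1, CHAC1 16.4, CEBPG 16.4, SESN2 14.6, ATF3 14.4, ATF5 5.68 and DDIT3 2.86 RPKM. There ATF4 lay above PPP1R15A, PPP1R15A above CEBPB, TRIB3 above CHAC1 and ATF5 above DDIT3 without overlap.

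**Figure D3:**
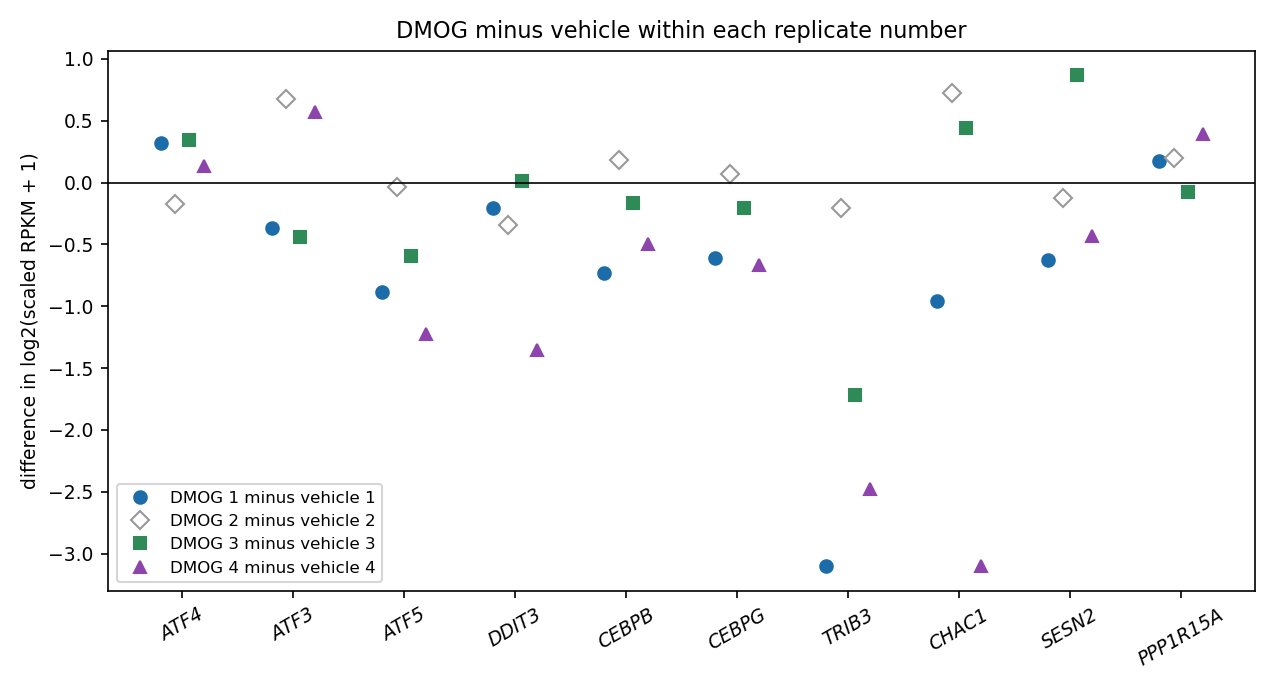
Difference in log2(scaled RPKM + 1) between the DMOG and the vehicle library of the same replicate number (vertical axis) for each member. TRIB3 is negative for each replicate number, at -3.10, -0.20, -1.72 and -2.48 for numbers 1 to 4, while CHAC1 ranges from -3.10 in number 4 to 0.73 in number 2.

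Within the 3 replicate numbers of the 6 libraries, same-numbered vehicle and DMOG libraries varied together, but over 8 libraries numbers 1 and 2 did not. The members lower with DMOG numbered 8 of 10 in number 1, 6 in number 3 and 7 in number 4, where 50.4%, 50.1% and 49.8% of all tested genes were lower. In number 2 there were 5, and 52.3% of genes. TRIB3, ATF5, CEBPB and CEBPG were lower in each of numbers 1, 3 and 4. ATF5 differed by -0.88, -0.60 and -1.22, CEBPB by -0.73, -0.16 and -0.50, and CEBPG by -0.61, -0.21 and -0.67 in that order. ATF4 was higher in each of the 3, by 0.32, 0.34 and 0.14, and lower in number 2, by -0.17. ATF3 differed by -0.37 and -0.44 in numbers 1 and 3 and by 0.57 in number 4. CHAC1 differed by -0.96, 0.44 and -3.10, and SESN2 by -0.63, 0.87 and -0.44, so number 3 went against the other 2 for both genes. With the replicate number as a block the same 4 members were called lower (adjusted p = 0.00728 for TRIB3, 0.0111 for ATF5, 0.0281 for CEBPG and 0.0385 for CEBPB) and 0 higher. In the blocked fit 21% of all genes were lower and 19.6% higher.

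Among other genes of the pathway, those that ATF4 is known to induce for amino acid supply were lower almost throughout. Over the 6 libraries 14 of 14 amino acid synthesis genes fell (median -2.62), from ALDH18A1, an enzyme of proline synthesis, at -0.62 ± 0.16 (adjusted p = 0.0282) to PSAT1, an enzyme of serine synthesis, at -4.33 ± 0.45 (0.00363). Of 8 amino acid transporters 7 fell and 0 rose (median -1.98), led by SLC7A11, the cystine transporter, at -2.52 ± 0.57 (0.0192), while SLC38A2, a neutral amino acid transporter, had -0.51 (0.337, but 0.0435 with the replicate block). Of 12 aminoacyl-tRNA synthetases 12 fell (median -2.18), from SARS at -0.94 ± 0.11 (0.00441) to MARS at -2.99 ± 0.53 (0.0103). The medians stand against -0.48 for the 10 members and -0.00 for all genes. The call for SLC7A11 was lost without vehicle replicate 1 (0.0623), 3 (0.0528) or 4 (0.0684) or DMOG replicate 1 (0.07), and that for ALDH18A1 without the same libraries (0.103, 0.0511, 0.0893 and 0.0605) and with no filter (0.0544). Those lists were drawn up with results on many of the same genes in these samples known, so their direction is not independent evidence.

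Other outputs of the stress response were divided. Counts in this and the next paragraph stand against 16.1% lower and 13.7% higher among all tested genes. The lists share genes, so their counts are not separate. TNFRSF10B, JDP2 and ATF6, which fell, and PPP1R15B, which rose, each count in 2 lists. Of 19 tested, 9 fell (47.4%) and 2 rose (10.5%, median -0.48), from GDF15, a secreted stress factor, at -4.03 ± 0.22 (adjusted p = 0.000906) to VLDLR, a lipoprotein receptor, at 0.99 ± 0.27 (0.0330, but 0.053 as deposited, 0.069 unfiltered, and 0.0781 to 0.104 on leaving out any vehicle library or DMOG replicate 1). Of 21 genes for the eIF2 alpha kinases, eIF2, eIF2B and the phosphatase, 6 fell (28.6%) and 3 rose (14.3%, median -0.24). EIF2S2, the beta subunit of eIF2, went from 125 ± 5.67 to 40.1 ± 14.6 RPKM (SD, n = 3 each, -1.38 ± 0.22, adjusted p = 0.00836), and PPP1CB, a catalytic subunit of protein phosphatase 1, from 91.0 ± 6.71 to 127 ± 6.53 RPKM (0.78 ± 0.12, 0.00824, and 0.48 as deposited). Of 20 genes of the other ER stress arms, 5 fell (25%) and 0 rose (median -0.31), from HYOU1, an ER chaperone, at -1.52 ± 0.41 (0.0334) to CALR, calreticulin, at 0.50 ± 0.20 (0.0956, but 0.0295 with the block and 0.0369 without DMOG replicate 4). HYOU1 lost its call unfiltered (0.0713) and on leaving out vehicle replicate 1 (0.0894), 3 (0.0881) or 4 (0.0941) or DMOG replicate 1 (0.105). Of 16 targets of p53, which can also induce SESN2 and ATF3, 5 fell (31.2%) and 1 rose (6.25%, median -0.34). TNFRSF10B, a death receptor, had -0.82 ± 0.14 (0.00905), and CCNG1, cyclin G1, 0.71 ± 0.19 (0.0329, but 0.0985 as deposited, 0.0656 with no filter, and 0.0676 to 0.109 without each library but DMOG replicate 3).

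Of 23 bZIP partners and relatives, 4 fell (17.4%) and 0 rose (median 0.13), and the share that fell was near that of all tested genes. NFE2L1, a bZIP factor that induces proteasome genes, averaged 115 ± 15.2 RPKM (vehicle) and 39.9 ± 0.960 (DMOG, both SD, n = 3; -1.20 ± 0.11, adjusted p = 0.00282). DBP, a clock-controlled bZIP factor, had 1.11 ± 0.41 (0.0806), and 0.0173 with the replicate block and 0.00649 without DMOG replicate 3. Of 6 tested paralogs of the feedback genes 1 fell and 1 rose (16.7% each, near the shares of all tested genes, median 0.00). CHAC2, a constitutive relative of CHAC1, averaged 1.45 ± 0.200 RPKM (vehicle) and 0.377 ± 0.192 (DMOG, both SD, n = 3) (-0.71 ± 0.14, adjusted p = 0.0125, lost without vehicle replicate 1 at 0.0564, vehicle replicate 4 at 0.0524 or DMOG replicate 1 at 0.0515). Its levels are near the pseudocount of 1 RPKM, and its log2 fold change was -1.52 with a pseudocount of 0.1 and -1.71 with limma-voom. PPP1R15B, the constitutive eIF2 alpha phosphatase subunit, had 19.7 ± 2.88 and 21.1 ± 0.554 RPKM (0.39 ± 0.11, adjusted p = 0.0396). Its call was lost as deposited (0.10, adjusted p = 0.547), with no filter (0.0634) and without each library but DMOG replicate 3 (0.058 to 0.134). TRIB1 had -0.40 (adjusted p = 0.290), TRIB2 0.16 (0.571, but -0.08 as deposited), SESN1 -0.15 (0.622) and SESN3 0.36 (0.328). Over the lists together, without repeats of shared genes, 60 of 129 tested genes fell and 6 rose, and 14 rose with the replicate block. Leaving out vehicle replicate 1, vehicle replicate 4 or DMOG replicate 1 lowered the count that fell to 37, 39 or 38. Among all 11122 genes tested the same fits lowered the count that fell from 1792 to 539, 586 or 607.

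**Figure D4:**
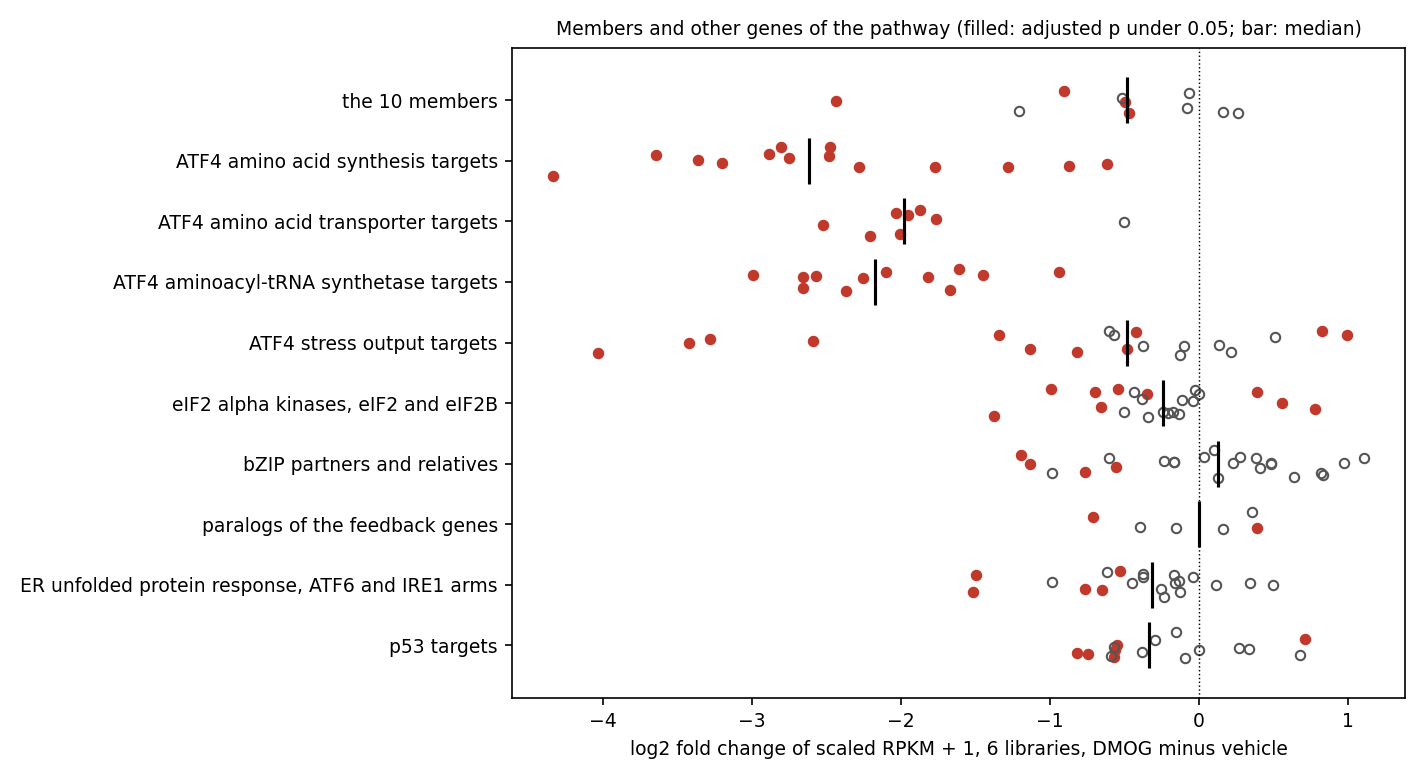
Log2 fold change of scaled RPKM + 1 over 6 libraries (DMOG minus vehicle, horizontal axis) for the 10 members and 9 lists of pathway genes. Each point is a gene, filled where the adjusted p is under 0.05, and bars are medians, at -0.48 for the members and -2.62, -1.98 and -2.18 for synthesis enzymes, transporters and tRNA synthetases.

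The genes most like each member across the 8 libraries were found by the root-mean-square difference of their centred log2 profiles, a description without a test. Nearest to ATF4 were TIFA (0.0966), LPAR6 (0.0987) and COL4A6 (0.107), where the SD of the ATF4 profile itself was 0.261. TIFA had 0.685 to 2.02 RPKM and LPAR6 1.23 to 2.67, so both profiles rest on low levels. ATF5 was nearest to SMARCC1 (0.0468), CEBPB to MRPL27 (0.0694), CEBPG to PROSER1 (0.0493), and PPP1R15A to FXYD3 (0.0778). TRIB3 was nearest to IARS, the isoleucyl-tRNA synthetase (0.295, against a profile SD of 1.36), which fell by 2.66 on the log2 scale (adjusted p = 0.00158). ATF3 was nearest to DUSP1, an early-response phosphatase (0.271), DDIT3 to KRCC1 (0.213), CHAC1 to HBEGF, a growth factor (0.369), and SESN2 to PTGS2, cyclooxygenase 2 (0.345). Among the members themselves the most alike were CEBPB and CEBPG (0.117), followed by ATF4 and PPP1R15A (0.22).

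In the authors' deposited table, made from the same 6 libraries, the members at an adjusted p under 0.05 were again TRIB3, ATF5, CEBPG and CEBPB, all lower, and 17.6% of its 13424 genes were lower and 18.8% higher at that threshold. The authors' deposited table gives log2 ratios of -2.42 for TRIB3 (adjusted p = 3.59e-15), -0.98 for ATF5 (2.14e-05), -0.53 for CEBPG (0.00809) and -0.47 for CEBPB (0.0205). For CHAC1 the authors' deposited table has -1.27 (0.0512), for DDIT3 -0.70 (0.158) and for SESN2 -0.29 (0.680). For ATF4, PPP1R15A and ATF3 the authors' deposited table has 0.26 (0.381), 0.21 (0.603) and 0.17 (0.884).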

How the data were processed

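RNA was sequenced in 8 libraries, 4 with DMSO vehicle and 4 with DMOG. About 1 µg of total RNA per sample was used, per the labels' protocols. The authors deposited RPKM values (in a table named as raw counts) for 25369 genes. The tools named per the submitters' processing notes include HTSeq 0.6.1, TopHat2 2.0.13 and Bowtie2 2.2.3.0, and the builds hg19 and hg38, without their roles. Gene positions are hg19 as deposited, without exon detail. RPKM times gene length gave whole reads within 0.01 reads for 100.0% of values above 0. The authors' deposited comparison table holds group means (a normalized signal), their ratio and its log2, and the p-value, raw and adjusted. Its means were recovered from replicates 1, 3 and 4 of each group, and why replicate 2 is absent is not given.

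RPKM were multiplied by median-ratio factors (0.879 to 1.18 over 8 libraries), and log2(RPKM + 1) was fitted with limma-trend (limma 3.58.1, R 4.3.3, robust empirical Bayes, group only) for the 11122 genes with 1 RPKM or more in at least 4 libraries. P-values are two-sided, adjusted by Benjamini-Hochberg over all these genes, with a threshold of 0.05. The fit was also run on simulated data, with independent noise of the vehicle spread in both groups. Those data had no library like DMOG replicate 2, so the run does not cover that feature. Means with SD are RPKM as deposited. Replicate numbers were checked by correlating deviations from group means: 0.47, 0.40 and 0.34 for numbers 1, 3 and 4 over the 6 libraries. Over 8 libraries the correlations were 0.073, -0.02, 0.53 and 0.24 for numbers 1 to 4, and vehicle replicate 1 was most like DMOG replicate 2. Whether the numbers pair the samples is therefore not settled, and the main fit did not use them.

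The members, the gene lists and the 6-library comparison were chosen with earlier results of these data known. The text names all members, the genes with the largest and smallest fold change of each list, all paralogs, and the nearest genes by profile. MARS, NUP62, IL4I1 and marker genes were named for their overlap or role. Alternatives were other scalings, pseudocounts and filters, limma-voom on recovered reads, a replicate block and leaving out each library.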

Additional observations from a re-analysis of the deposited data

Results flagged for a closer look

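In 2 of the 20 groups of 4 libraries formed by the 10 members and 2 treatments, 1 library stood far from the other 3 by Dixon's criterion at the 95% level, a criterion that chance alone meets in about 1 of 20 groups. TRIB3 in DMOG replicate 2 had 240.4 RPKM, and its gap to the next library was 0.895 of the range. CEBPG in DMOG replicate 2 had 31.8 RPKM, with a gap of 0.856 of the range. Both are the same library, which lay beside the vehicle libraries on the first principal component. Why it does was not tested.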

How the results depend on the processing

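TRIB3 and ATF5 were called lower over the 6 libraries under each alternative run, including the replicate block and each library left out. Members called lower over the 6 libraries fell from 4 to 2 with no filter, which tests more genes, and numbered 2 to 4 when each library was left out in turn. Over 8 libraries they numbered 0 to 4, where only leaving out DMOG replicate 2 gave 4, with 1970 genes lower and 1724 higher in all against 0 otherwise. Over the 6 libraries, genes called lower rose from 1792 to 3836 and genes called higher fell from 1526 to 682 with RPKM as deposited, and they numbered 539 to 2527 and 379 to 2224 when each library was left out. Of the list genes, 60 were lower (37 to 66 with a library left out) and 6 higher (1 to 11), and those higher numbered 1 as deposited, 2 unfiltered and 14 with the replicate block. The block changed no call of a member.

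With each of the 6 libraries left out in turn, 3 members kept their direction but moved by over 1.5 times. CHAC1 ranged from -1.76 (without vehicle replicate 3) to -0.65 (without DMOG replicate 4) and was -0.82 without vehicle replicate 4. DDIT3 ranged from -0.79 (without vehicle replicate 3) to -0.26 (without vehicle replicate 4), and ATF4 from 0.094 to 0.42 (without vehicle replicates 3 and 4). Members and paralogs that changed direction were these. With RPKM as deposited, ATF4 was at -0.053 over 8 libraries and -0.038 over 6, PPP1R15A at -0.039 and -0.14, ATF3 at -0.088 over 8 libraries, and TRIB2 at -0.075 over 6. With each library left out in turn, ATF3 ranged from -0.34 to 0.41 over 8 libraries and from -0.74 to 0.38 over 6. SESN2 ranged from -0.60 to 0.17 and from -0.72 to 0.34, PPP1R15A from -0.0082 to 0.32 and from -0.10 to 0.40, TRIB2 over 6 libraries from -0.015 to 0.31, and SESN1 from -0.36 to 0.023. The alternatives for single list genes were added after seeing the data. Depth limits DDIT3 most, with 71 reads in its lowest library.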

Other observations

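The vehicle libraries differed among themselves in these genes in a shared way. As deposited, vehicle replicate 4 had the highest level of all 10 members, and it was the highest of the 4 vehicle libraries for 37.3% of all tested genes. Scaled by median-ratio factors it was highest for 6 members, against 24.8% of all tested genes. Vehicle replicate 2 was highest for the other 4, against 34.5%, so that count was near the share of all genes. Vehicle replicate 3 was lowest for 7 members as deposited and for 8 as scaled, against 24.2% and 23.6% of all tested genes. The ratio of highest to lowest vehicle library was greatest for SESN2, with 6.68 RPKM in vehicle replicate 3 and 26.5 to 34.7 in the others, and for CHAC1, with 18.4 to 74.6 RPKM. What set these libraries apart was not tested.

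CEBPB stood at 0.442 to 0.695 of the ATF4 level in the vehicle libraries and at 0.306, 0.488 and 0.349 in DMOG replicates 1, 3 and 4, with 0.564 in DMOG replicate 2. For CEBPB too, DMOG replicates 2 and 3 lay inside the vehicle range. CHAC1 stood at 0.189 to 0.458 of the ATF4 level with vehicle and at 0.165, 0.425, 0.205 and 0.0429 in DMOG replicates 1 to 4, so DMOG replicates 2 and 3 lay inside the vehicle range. These ratios are of RPKM within a library and do not depend on the scaling.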
